A study of Homo sapiens with 4 samples.

Results

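The BEX, ARMCX and NAP1L genes are small families known mainly from the brain, and 10 of their members were followed here across knockdown clones of the ovarian cancer cell line A2780s. The members are BEX1, BEX2 and BEX4, ARMCX1, ARMCX2, ARMCX3 and ARMCX6, and NAP1L1, NAP1L2 and NAP1L3. They were measured by 14 probes, found through the accession that the array gives each probe, among 39151 probes and 16882 named genes that could be measured. All 14 member probes passed the filter on dim spots. The 10 genes were chosen by their ratios on these same arrays, so their ratios are given as a description and carry no test.

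The arrays compared RNA of 2 stable clones labelled sh-G1 and sh-G2 with RNA of 1 mock-transfected clone, ctrl. Both knockdown clones carry the same shRNA against GALNT3 in the pSilencer 4.1 puro vector, and ctrl carries that vector, and clones were picked after 2 weeks in 5 µg/ml puromycin. The 4 arrays lay on 1 slide, 2 for each of sh-G1 and sh-G2 with ctrl in the other channel, and the knockdown RNA was in Cy5 on replicate 1 and in Cy3 on replicate 2. Both arrays of a clone were averaged, which leaves 2 clones as replicates and 1 ctrl clone on the other side, so a difference may belong to the ctrl clone as well as to the knockdown, and these cannot be told apart. The samples are whole cultures, in which fewer cells of a kind and less RNA per cell cannot be told apart either.

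On these arrays the targeted gene did not check the labels. The study picked its clones by RT-PCR and Western blot of GALNT3, which were not analysed here. The single GALNT3 probe had log2 ratios of -0.09 and 0.08 for the sh-G1 arrays, and those for sh-G2 were 0.12 and -0.14. Its intensity was between 61.0 and 74.0 in the knockdown channels and between 64.0 and 91.5 in the ctrl channels, and the knockdown channel was well above background on 2 of 4 arrays. The clones are therefore named as they are labelled, and every direction below is that of the clones labelled sh-G1 and sh-G2. Of 8 genes taken as markers of ovarian and other epithelial cells, among them PAX8, WT1, MUC16 and EPCAM, 8 were well above background in ctrl on all 4 arrays, but so were 13 of 13 neuronal, 5 of 5 glial and 6 of 6 fibroblast markers. With 95.9% to 97.6% of all spots well above background in a ctrl channel, detection does not tell these cell types apart here. KRT18 and KRT8, keratins of simple epithelia, were downregulated in both clones, by a mean log2 ratio of -2.32 (adjusted p = 0.036, limma) and -1.03 (adjusted p = 0.032, limma). The rest of the 8 epithelial markers did not pass, and the median over the list was -0.04. Summed over the 8, the unnormalised intensity was 14529 to 21628 in the ctrl channels and 4695 to 6971 in the knockdown channels, without overlap. Such a sum is weighted towards the brightest genes and leaves out the pairing of channels and their unlike brightness. Nothing about the list as a whole is drawn from it.

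BEX proteins are small adaptor proteins, of which BEX1 and BEX3 bind the neurotrophin receptor NGFR in neurons. ARMCX proteins carry armadillo repeats and sit largely on the mitochondrial outer membrane, where ARMCX1 and ARMCX3 act in the transport of mitochondria along axons. NAP1L proteins are histone chaperones, which take up and release histones as nucleosomes are built. Most of these genes are on chromosome X, and the BEX and ARMCX genes share a stretch of its long arm with the related TCEAL and GPRASP genes.

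The promoters of these genes are shown first, since BEX2 was lowered and BEX4, with a closely similar start region, was not. RefSeq promoter windows of the build GRCh38.p14, each with 250 bases before a gene's start and 50 bases after it, were found for 9 of the 10 members, all but ARMCX3. All 6 BEX and ARMCX members with a window held the motif CACGTG, an E-box that reads the same on both strands, and 7.26% of all 35116 windows held it. The motif was searched for after the windows had been read. The stretches around it are given for 5 members, 5′ to 3′ on the gene's own strand and ending before the start, with the motif in capitals. BEX1 and BEX2 are followed by BEX4, then ARMCX1 and ARMCX2. In ARMCX6 the motif began at the base just before the start.
BEX1, chrX:103064183-103064248, minus strand: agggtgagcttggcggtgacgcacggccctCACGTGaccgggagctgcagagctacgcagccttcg
BEX2, chrX:103310991-103311039, minus strand: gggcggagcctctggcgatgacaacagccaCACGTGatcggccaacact
BEX4, chrX:103215059-103215107, plus strand: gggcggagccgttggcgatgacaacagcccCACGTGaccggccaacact
ARMCX1, chrX:101550488-101550546, plus strand: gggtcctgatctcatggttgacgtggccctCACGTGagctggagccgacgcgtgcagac
ARMCX2, chrX:101659875-101659940, minus strand: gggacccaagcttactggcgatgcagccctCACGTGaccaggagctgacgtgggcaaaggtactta

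BEX2 and BEX4 were the most alike, with 85.1% identity over the 250 bases before the start (217 identical bases in 255 alignment columns). The other pairs within the BEX, ARMCX and NAP1L families had identities between 48.7% and 58.5%. Their next 151 bases upstream show the resemblance, with capitals for the bases that differ from the partner or stand against a gap.
BEX2, chrX:103311040-103311190, minus strand: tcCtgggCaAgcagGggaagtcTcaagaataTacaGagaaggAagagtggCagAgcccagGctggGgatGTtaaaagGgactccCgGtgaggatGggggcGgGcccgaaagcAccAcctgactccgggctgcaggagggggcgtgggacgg
BEX4, chrX:103214908-103215058, plus strand: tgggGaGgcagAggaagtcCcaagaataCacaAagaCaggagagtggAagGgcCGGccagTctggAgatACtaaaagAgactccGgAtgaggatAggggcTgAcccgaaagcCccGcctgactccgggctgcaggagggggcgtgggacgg
Of 2 windows that RefSeq gives for BEX4, the one with the motif wholly before the start is shown.

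In each family some members were lowered and others were not. By the brightest probe of each gene, 5 of the 10 members were at least 1.5-fold lower than in ctrl on all 4 arrays, namely BEX1, BEX2, ARMCX2, ARMCX3 and NAP1L3. Over all measured genes 218 of 16882 were that much lower, or 1.29%, but the members were chosen for it and nothing is read from the difference. None of the 10 was at least 1.5-fold higher on all 4 arrays, where the share over all genes was 0.355%. The other 5, BEX4, ARMCX1, ARMCX6, NAP1L1 and NAP1L2, met neither limit. The lowered genes were 2 of 3 BEX, 2 of 4 ARMCX and 1 of 3 NAP1L members. These are not shares of whole families, since BEX3, BEX5, ARMCX5, NAP1L4 and NAP1L5 were measured but are not members here. The median over the 10 members was a log2 ratio of -0.80, against -0.004 over all genes. Of the probes that met the limit, the array value nearest to it was -1.19 (ARMCX3), and of those that did not, the lowest array value was -0.51 (NAP1L1). Where intensities of the groups are compared below, they are unnormalised and pooled over the arrays. This leaves out the pairing of channels on an array and their unlike brightness. On replicate 1 of sh-G1 the median intensity was 463.25 in the knockdown channel and 802.5 in the ctrl channel.

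**Figure D1:**
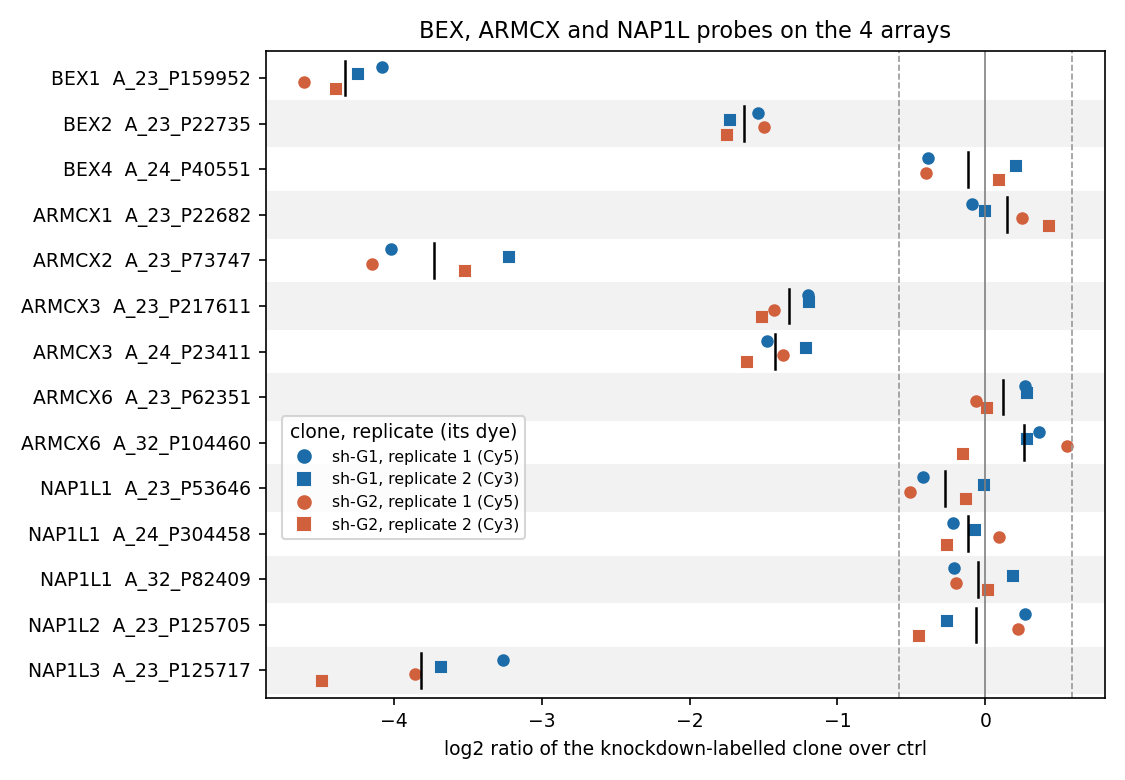
Log2 ratio of the knockdown clone over ctrl (x axis) for each of the 14 member probes (y axis), with 1 point per array, colour for the clone and shape for the replicate and its dye. Black bars are means of the 4 arrays, and dashed lines mark 1.5-fold. Points of BEX1, BEX2, ARMCX2, ARMCX3 and NAP1L3 lie left of the lower dashed line on all 4 arrays, and those of the other probes lie between the lines.

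BEX1 showed the lowest ratio of the 10. Its spot intensity (probe A_23_P159952) was 5767 and 2620 for ctrl against 192 and 117 for sh-G1, and 6189 and 3354 for ctrl against 150 and 169.5 for sh-G2. No knockdown value came near a ctrl value, and the knockdown signal still lay above the local background of 37 to 42 on all 4 arrays. On the log2 scale the ratios were -4.08 and -4.24 in sh-G1 and -4.61 and -4.39 in sh-G2. The mean was -4.33 ± 0.24 (SD, n = 2 clones), or 20.1-fold lower.

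BEX2, known from work on the survival of breast cancer cells, was lower by a smaller amount. Its probe A_23_P22735 read 11580.5 and 7124.5 for ctrl against 2249 and 2111 for sh-G1, and 11904 and 8547.5 for ctrl against 2645 and 2833 for sh-G2. The groups did not overlap, and the signal that stayed in the knockdown channels was far above background. The log2 ratios were -1.54 and -1.73 in sh-G1 and -1.50 and -1.75 in sh-G2, with a mean of -1.63 ± 0.01 (SD, n = 2 clones), or 3.10-fold lower. In both clones the array with the knockdown in Cy3 gave the lower value, by 0.19 and 0.24.

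BEX4, which binds tubulin, differed from both. Its probe A_24_P40551 read 10674 and 4476.5 for ctrl against 4624 and 5158 for sh-G1, and 9593 and 5593.5 for ctrl against 4596 and 6631 for sh-G2. The groups overlapped, and the sign differed between the replicates in both clones: -0.39 and -0.40 with the knockdown in Cy5, 0.21 and 0.09 with it in Cy3. Replicate number and dye coincide in this design and cannot be told apart. The mean log2 ratio was -0.12 ± 0.05 (SD, n = 2 clones). BEX2 and BEX4, with the closely matching promoters printed above, thus differed in log2 ratio on every array, with no overlap of their values. Near-identical family members may share signal on a probe, and the probe sequences were not used here.

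**Figure D2:**
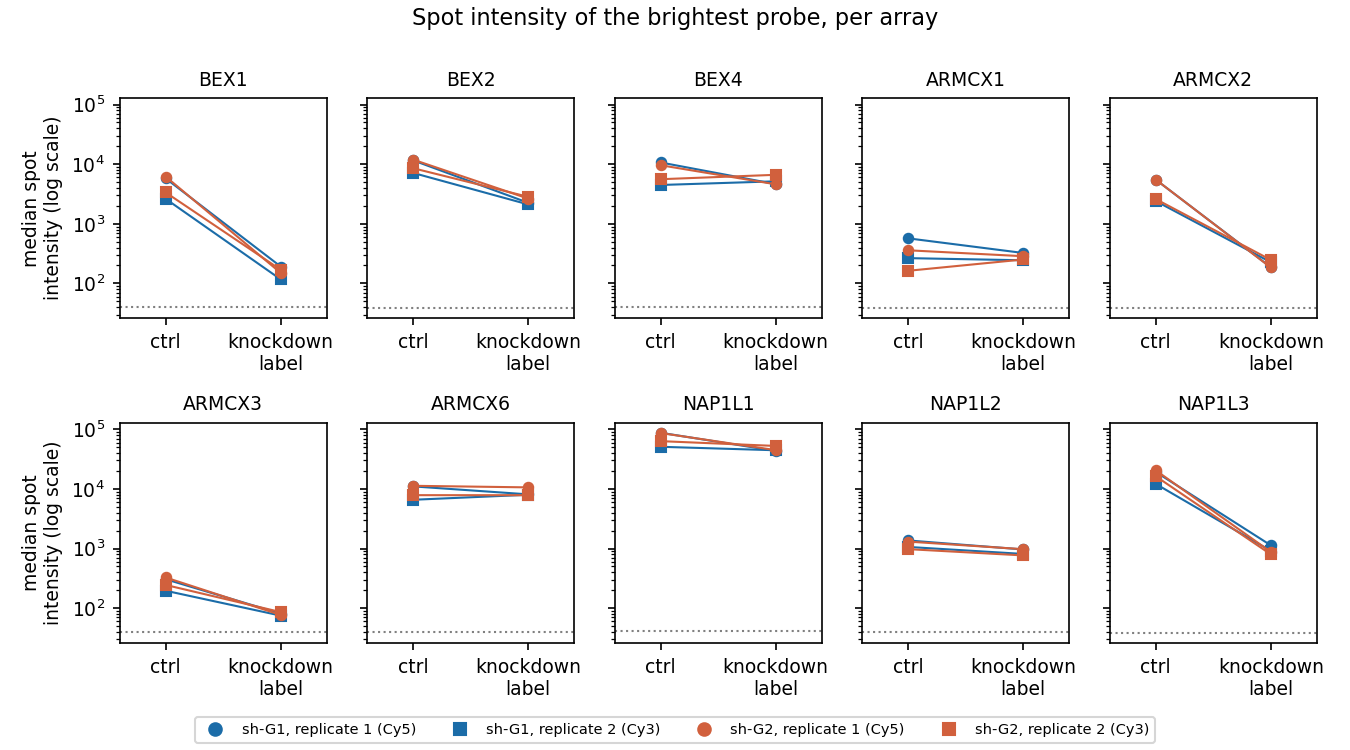
Median spot intensity (y axis, log scale) of the brightest probe of each member in the ctrl channel and in the knockdown channel, with 1 line per array and the median local background as a dotted line. All 4 lines of BEX1, BEX2, ARMCX2, ARMCX3 and NAP1L3 run down from ctrl, and those of the other 5 are flatter or cross.

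Of the ARMCX genes, ARMCX2 had the lowest ratio. Probe A_23_P73747 read 5491 and 2406 for ctrl against 187 and 227 for sh-G1, and 5510 and 2597 for ctrl against 185 and 248 for sh-G2. The lowest ctrl value, 2406, lay far above the highest knockdown value, 248. The log2 ratios were -4.02 and -3.22 in sh-G1 and -4.15 and -3.52 in sh-G2, with a mean of -3.73 ± 0.15 (SD, n = 2 clones), or 13.2-fold lower. The wider gap here was between the dye-swapped arrays: those of a clone differed by 0.81 (sh-G1) and 0.63 (sh-G2), while the clone means differed by -0.21 (sh-G2 minus sh-G1).

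ARMCX3, which links mitochondria to their motor adaptors, was dim in every channel, and its knockdown signal was close to the limit of detection. Probe A_23_P217611 read 305.5 and 196 for ctrl against 81 and 75 for sh-G1, and 327 and 245 for ctrl against 77 and 86 for sh-G2. The knockdown channel was well above background on 3 of 4 arrays, all but replicate 2 of sh-G2. Log2 ratios were -1.20 and -1.19 in sh-G1 and -1.43 and -1.51 in sh-G2, with a mean of -1.33 ± 0.19 (SD, n = 2 clones). The value of -1.51, and with it the mean, rests in part on that undetected spot. The second probe, A_24_P23411, read between 155 and 272 for ctrl and between 62 and 70 for the knockdown clones, not well above background on any of the 4 arrays. No fold is drawn from it, and the size of the difference rests on the first probe. That size depends on the background correction, as the first probe's mean was -2.09 at an offset of 0 and -2.54 with the software's own ratios. Both probes gave the same direction on all 4 arrays.

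ARMCX1, the other member known for moving mitochondria, was measured by probe A_23_P22682 at 570 and 265.5 for ctrl against 324 and 244.5 for sh-G1, and at 359.5 and 163 for ctrl against 286 and 252 for sh-G2. These values overlapped. The log2 ratios were -0.09 and 0.00 in sh-G1 and 0.25 and 0.43 in sh-G2. The mean was 0.15 ± 0.27 (SD, n = 2 clones).

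ARMCX6 was bright in all channels. For probe A_32_P104460 the log2 ratios in sh-G1 came to 0.36 and 0.28, those in sh-G2 to 0.55 and -0.15, and probe A_23_P62351 gave 0.27 and 0.28 in sh-G1 and -0.06 and 0.01 in sh-G2. Intensities of the brighter probe were 6577 to 11279.5 for ctrl and 7846 to 10614 for the knockdown clones, so the groups overlapped. ARMCX6 and ARMCX3 are neighbours among the measured genes of chromosome X, and their values did not overlap on any array.

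NAP1L3 was the member of its family with the low ratio. Probe A_23_P125717 read 19238 and 12127.5 for ctrl against 1133.5 and 915.5 for sh-G1, and 20472 and 16302 for ctrl against 879 and 800 for sh-G2. The groups lay far apart, yet NAP1L3 could still be detected over background in both knockdown clones on each of the 4 arrays. As log2 ratios these were -3.26 and -3.68 in sh-G1 and -3.86 and -4.49 in sh-G2. Their mean was -3.82 ± 0.50 (SD, n = 2 clones), or 14.1-fold lower, and sh-G2 was lower than sh-G1 by a log2 difference of -0.71, against 0.42 and 0.62 between the dye-swapped arrays of each clone. With the arrays of a clone averaged, no degree of freedom is left to test that difference.

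NAP1L1 is the widely expressed member, encoded on chromosome 12, the only one of the 10 outside chromosome X. Its brightest probe, A_23_P53646, read 50874 to 87429 for ctrl and 43366 to 52554 for the knockdown clones. The ranges overlapped, although the knockdown value was below the ctrl value on each of the 4 arrays. The log2 ratios were -0.42 and -0.01 in sh-G1 and -0.51 and -0.13 in sh-G2, with a mean of -0.27 ± 0.08 (SD, n = 2 clones). The other 2 probes had means of -0.12 (A_24_P304458) and -0.05 (A_32_P82409), and each went in both directions among the 4 arrays. NAP1L2, known from neurons, gave 0.27 and -0.26 in sh-G1 and 0.22 and -0.45 in sh-G2 with probe A_23_P125705, positive in Cy5 and negative in Cy3 in both clones. Its unnormalised intensities were 977 to 1367 for ctrl and 767 to 975 for the knockdown clones, without overlap. After normalisation its mean log2 ratio was -0.06.

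None of the measured relatives of the BEX and ARMCX genes was called. Members were chosen by their ratios, so the relatives here and below are in part what was left. Their lack of calls is a description. Of 17 BEX, TCEAL, ARMCX and GPRASP relatives, 16 were measured, with a median log2 ratio of -0.02 and none past limma's adjusted p of 0.05, against 0.906% of all genes lower and 0.184% higher by that test. At an unadjusted p under 0.05, which 2588 of all 16882 genes or 15.3% had, 2 of the 16 passed, TCEAL8 at 0.28 (adjusted p = 0.230, limma) and TCEAL9 at 0.26 (adjusted p = 0.285, limma). BEX3, which binds NGFR as BEX1 does, had a mean of 0.11, and BEX5 one of 0.00. The TCEAL genes, named for their likeness to a transcription elongation factor, were otherwise between -0.10 (TCEAL5 and TCEAL2) and 0.08 (TCEAL7), with TCEAL3 at -0.07, TCEAL1 at -0.06, TCEAL6 at -0.05 and TCEAL4 at 0.02. The sorting proteins of G-protein-coupled receptors were at -0.19 (GPRASP1), -0.13 (GPRASP2) and -0.03 (GPRASP3). ARMCX5 was at 0.05 and ARMC10, the relative outside chromosome X, at 0.03. Of 15 of these relatives on chromosome X with a promoter window, 10 held CACGTG in 1 or more windows, so the motif was found in lowered members, in members near 0 and in relatives that were not called.

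Of 9 genes related to NAP1L by their histone-binding domain, 8 were measured and 0 passed limma's adjusted p, while 4 passed at an unadjusted p under 0.05, with 15.3% of all genes as the background. NAP1L5, an imprinted gene, was positive on all 4 arrays with a mean of 0.49 ± 0.05 (SE, n = 2 clones, adjusted p = 0.092, limma). SET, a histone chaperone that also inhibits a phosphatase, had a mean of -0.67, with 0.06 and -0.70 in sh-G1 and -0.87 and -1.18 in sh-G2 (adjusted p = 0.329, limma). TSPYL2 was at -0.39, TSPYL4 at -0.10, TSPYL6 at -0.04, NAP1L4 and TSPYL1 at 0.06 and TSPYL5 at 0.17.

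Partner genes of each family were read in the same way. Of 18 histone chaperones 17 were measured, between -0.18 and 0.24 with a median of 0.07, and none passed at an unadjusted p under 0.05. Of 14 genes of neurotrophins, their receptors and receptor partners 13 were measured, with a median of -0.01. None passed limma's adjusted p, and 4 passed unadjusted. The lowest of them were SORT1, a sorting receptor for neurotrophins, at -0.96 (adjusted p = 0.068, limma) and BDNF, a neurotrophin, at -0.52 (adjusted p = 0.073, limma). By size SORT1 was at least 1.5-fold lower on all 4 arrays, at -1.14 and -1.10 in sh-G1 and -0.87 and -0.75 in sh-G2, the one gene of these 5 lists to be so. All 14 genes of mitochondrial transport and fusion were measured, between -0.16 and 0.22 with a median of 0.01, of which 0 passed adjusted and 3 unadjusted. Over these 5 lists 68 genes were measured, 0 passed limma's adjusted p and 13 had an unadjusted p under 0.05, against 15.3% of all genes. Another fit, with the clone as a random block over the 4 arrays, called 8 of them, among them SORT1 and BDNF at the same mean ratios. That fit takes the dye-swapped arrays of a clone as separate values. It called 904 genes lower and 457 higher among all 16882, so nothing particular to these lists is read from the 8.

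**Figure D3:**
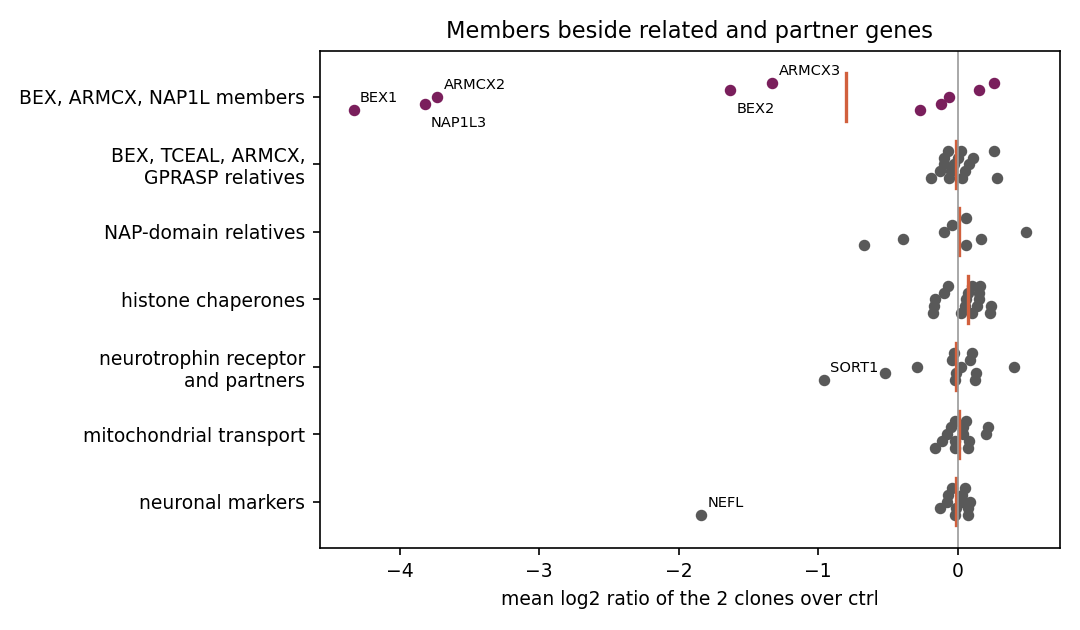
Mean log2 ratio of the 2 clones over ctrl (x axis) for the 10 members and for the related genes, partner genes and neuronal markers, with 1 point per gene by its brightest probe and a bar for the median of each list. The members spread from -4.33 to 0.26, and the relatives and partners stay between -0.96 and 0.49.

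Because the families are known from brain, markers of neurons, glia and fibroblasts were read beside them. Of 13 neuronal markers, NEFL, a neurofilament, was downregulated at -1.84 (adjusted p = 0.026, limma) and the other 12 did not pass, with a median of -0.01 over the list. Summed over the 13 markers, the unnormalised intensity was 12997 to 20692 in the ctrl channels and 8908 to 14197 in the knockdown channels. These ranges overlapped, but they pool the arrays and leave out the pairing of channels on each array. None of 5 glial markers passed. Of 6 fibroblast markers, PDGFRA was downregulated at -1.16 (adjusted p = 0.021, limma) and COL3A1 was upregulated at 0.90 (adjusted p = 0.035, limma), a call lost without replicate 2 of sh-G2 (adjusted p = 0.081, limma). LUM and DCN, proteoglycans of connective tissue, were at -3.31 (adjusted p = 0.221, limma) and -3.17 (adjusted p = 0.187, limma), with a wide gap between clones. THY1 was at -0.55 and COL1A2 at -0.33, so 5 of the 6 had a mean below 0, as the lowered members did. The median of the 6 was -0.86. In either direction, with the upregulated COL3A1 among them, 6 of 6 had an unadjusted p under 0.05, against 15.3% of all genes. The summed fibroblast intensity, pooled in the same way, was 59830 to 107472 in ctrl and 51437 to 76112 in the knockdown clones. The part of any other cell state in the members' ratios was not tested.

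In gene order on chromosome X, the lowered BEX and ARMCX genes stood among genes that were not lowered, ARMCX3 and ARMCX2 next to each other and BEX1 and BEX2 apart. From ARMCX1 to BEX2 there were 19 measured genes, 7 of them members, in the order ARMCX1, ARMCX6, ARMCX3, ARMCX2, then 9 genes from TCEAL2 to RAB40AL, then BEX1, NXF3, BEX4, TCEAL8, TCEAL5 and BEX2. The 12 that are not members had a median log2 ratio of -0.07 and a range from -0.57 to 0.28. None of them passed limma's adjusted p and 2 had an unadjusted p under 0.05. The lowest was TMSB15A, a thymosin that binds actin, at -0.32 in sh-G1 and -0.81 in sh-G2 (adjusted p = 0.276, limma). Over the 645 other measured genes of chromosome X, 11 were at least 1.5-fold lower on all 4 arrays and 5 at least 1.5-fold higher, or 1.71% and 0.775%.

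**Figure D4:**
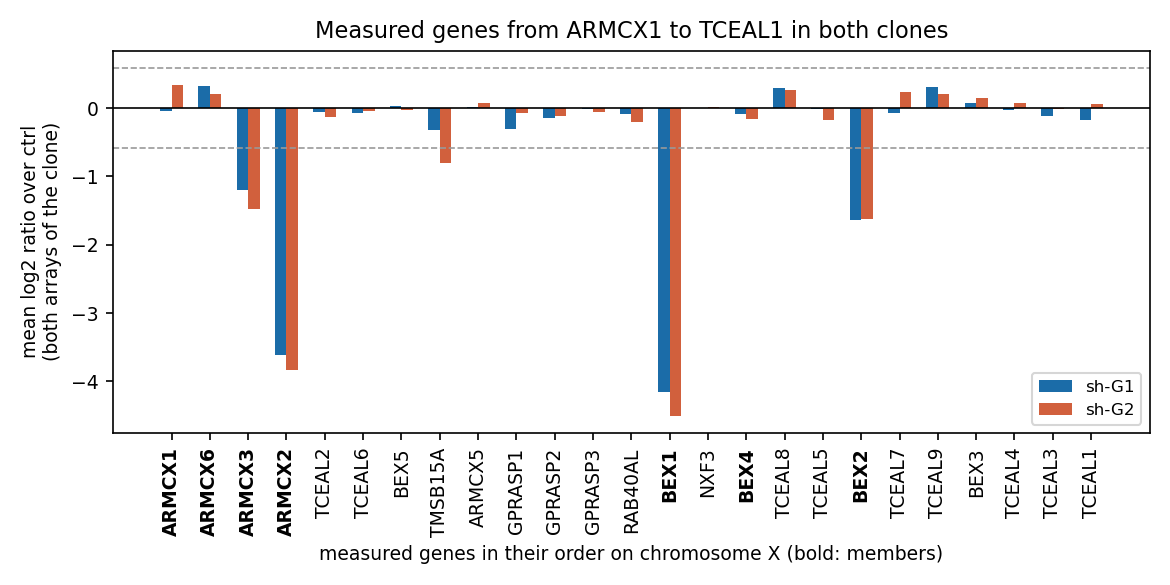
Mean log2 ratio over ctrl of sh-G1 and sh-G2 (y axis, bars from 0) for the measured genes from ARMCX1 to TCEAL1 in their order on chromosome X (x axis, members in bold), with dashed lines at 1.5-fold. ARMCX3, ARMCX2, BEX1 and BEX2 reach below the lower dashed line in both clones, and no gene between them does so in both clones.

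On the wider stretch of chromosome X from NAP1L2 to BEX2, 75 measured genes are not members. Of these, FAM133A, TNMD and HMGN5 were at least 1.5-fold changed on all 4 arrays. That made 2.67% of the 75 lower and 1.33% higher, against 1.29% and 0.355% of all genes. FAM133A is the next measured gene to NAP1L3 and is read from the opposite strand. It read -2.49 and -2.34 on the log2 scale in sh-G1, then -2.94 and -2.78 in sh-G2, below 0 on 4 of 4 arrays. Its mean of -2.64 ± 0.22 (SE, n = 2 clones) passed limma (adjusted p = 0.025), so NAP1L3 and its divergent neighbour were both low. The test takes the ctrl clone as without spread, and with the ctrl clone given the spread of the knockdown clones the adjusted p was 0.165. The next measured gene on the other side of NAP1L3, PABPC5, was at 0.02 (adjusted p = 0.942, limma).

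The starts of NAP1L3 and FAM133A are 628 bases apart in the RefSeq promoter windows and point away from each other. The 150 bases before the NAP1L3 start lie in the stretch between them, and are given with each CpG in capitals.
NAP1L3, chrX:93673579-93673728, minus strand: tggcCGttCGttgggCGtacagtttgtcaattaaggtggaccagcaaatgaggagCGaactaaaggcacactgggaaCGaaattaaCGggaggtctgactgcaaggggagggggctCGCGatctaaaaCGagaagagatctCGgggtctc
This stretch holds 10 CpG and no CACGTG. Over whole windows, the lowered genes with a window held 25 CpG (BEX1), 17 (BEX2), 11 (ARMCX2) and 21 (NAP1L3), and the others 17 (BEX4), 14 (ARMCX1), 9 (ARMCX6), 30 (NAP1L1) and 7 (NAP1L2), so the counts overlapped. ARMCX3, also lowered, had no window. The median over all windows was 14.

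TNMD, a membrane protein of tendon, was lower at -1.17 and -1.15 in sh-G1 and -1.19 and -1.26 in sh-G2, with a mean of -1.19 ± 0.03 (SE, n = 2 clones, adjusted p = 0.020, limma). HMGN5, a nucleosome-binding protein, was positive on all 4 arrays with a mean of 1.27 ± 0.29 (SE, n = 2 clones) and did not pass limma (adjusted p = 0.115).

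Members were left out of a search for the genes whose 4 array ratios were closest to those of the 3 lowest members. The relatives stayed between -0.67 and 0.49, so the search could only give genes of other families. The measure was the root mean square difference in log2 ratio over the 4 arrays, and since they were picked for likeness they are a description. For BEX1 they included MEST, an imprinted gene (0.55), and UCHL1, a deubiquitinase abundant in neurons (0.59). For ARMCX2 they included the adhesion protein FLRT3 (0.17) and the annexin ANXA3 (0.44). For NAP1L3 they were UCHL1 (0.23), the transcription factor SOX2 (0.39) and ANXA3 (0.56). The clone means of UCHL1 were -3.65 (sh-G1) and -3.93 (sh-G2).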

How the data were processed

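Total RNA of the clones was hybridised to 4 Agilent Whole Human Genome arrays of 2 colours. The authors deposited, for each spot and channel, the median intensity and its local background from Agilent's Feature Extraction (version 10.5.1.1 in the file headers, 8.5.1.1 in the submitters' processing notes), and a log10 ratio, which was used as an alternative. In the deposited value table, 1 column holds the error of that log10 ratio and was not used. Here, background was corrected with normexp (offset 50), log2 ratios were normalised by loess, array by array, their sign was set to knockdown against ctrl, and spots with outlier marks were left out. Of 40905 probes, 39151 had a well-detected channel on each array and were used. Names came from a RefSeq table of GRCh38.p14, used for names and gene order only, which matched 25398 of 41000 probes; the brightest probe stood for a gene. Intensities are as read from the scan, before normalisation. Between 88.1% and 97.6% of spots were well above background in a channel, and the number of arrays limits the precision. Genes that are not members were tested with limma 3.58.1 in R 4.3.3 (mean of the 2 clones against 0, trend, Benjamini-Hochberg over all probes kept). It measures the spread between clones of 1 shRNA only. The test was checked at known changes on data simulated from its own fitted spread. That simulation held no shared ctrl clone, so it does not check the test for this design. The genes named are all members and relatives, listed genes past the test, changed genes on the members' stretch of chromosome X, and the 3 genes most like BEX1, ARMCX2 and NAP1L3, of which 1 is not reported here; SORT1, BDNF, LUM, DCN, THY1, COL1A2, TMSB15A and PABPC5 were added after their values were seen. The members and lists were chosen with earlier results of these data known. Promoters were aligned with biopython 1.88. Alternatives changed the background correction, the normalisation, the filter, the arrays used and the fit.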

Additional observations from a re-analysis of the deposited data

Results flagged for a closer look

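ARMCX1 had opposite signs in the 2 clones, which rests on a value close to 0. Both sh-G1 arrays were below 0 (-0.09 and -0.004) and both sh-G2 arrays above it (0.25 and 0.43), a difference between the clones of 0.38 on the log2 scale, against 0.08 and 0.17 between the dye-swapped arrays of a clone. With the software's own ratios the sh-G1 arrays had both signs (0.33 and -0.47), and with the series matrix values, which hold 1 sh-G1 array, ARMCX1 was above 0 in both clones (0.33 and 0.54). TCEAL7, one of the listed relatives and the next measured gene past BEX2 on chromosome X, also had opposite signs in the clones. It was at -0.10 and -0.04 in sh-G1 and 0.11 and 0.34 in sh-G2, a difference of 0.30. Neither difference was tested, and both are small beside the changes of the lowered members. Each group holds 2 arrays, too few to look for a single array that stands apart.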

How the results depend on the processing

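The 5 lowered members stayed below 0 under every alternative that gave a value, 12 for BEX1 (-4.99 to -4.27), BEX2 (-1.69 to -1.57), ARMCX2 (-4.31 to -3.52) and NAP1L3 (-3.98 to -3.66), and 11 for both ARMCX3 probes (-2.55 to -1.30 and -3.33 to -1.35), which fail a filter that asks for both channels above background. With that filter 4 members were lowered, and with 2-fold in place of 1.5-fold 5. Of the other members, BEX4 (-0.27 to 0.03), NAP1L2 (-0.23 to 0.11) and the NAP1L1 probe A_32_P82409 (-0.22 to 0.05) took both signs. The count of 0 listed relatives and partners by limma became 3 with the series matrix values (BDNF, NAP1L5, SORT1), 1 to 3 with an array left out (SORT1 in each case, and BDNF, SET or ANP32A) and 8 with the clone as a random block (BDNF, KIF5C, LMO2, NAP1L5, RIPK2, SORT1, TSPYL2, TSPYL5), where TMSB15A was also called, 1 gene between ARMCX1 and BEX2. Over all genes limma called 153 lower and 31 higher, 427 and 117 with the series matrix values, 62 higher with the software's ratios, 169 to 460 lower and 34 to 186 higher with an array left out, and 904 and 457 with the random block. When ctrl was taken to vary as much as the knockdown clones it called 0, with 995 genes at an unadjusted p under 0.05, so FAM133A, TNMD, KRT8, KRT18, NEFL, PDGFRA and COL3A1 are not called there. By size, 333 genes were lower with the series matrix values, and 111 lower and 25 higher at 2-fold, against 218 and 60. The causes were not tested. Each log2 ratio pairs the knockdown and ctrl channels of an array. No further pairing was possible because the replicate numbers mark the dye and each clone is 1 replicate.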
